A study of Mus musculus with 6 samples.

Results

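The aminoacyl-tRNA synthetase genes were described in TIBx cells, a mouse line labelled as liver BNL 1ME A.7R.1, without and with the fusion kinase DNAJ-PKAc. They were chosen by gene name, with summed counts of at least 10 over the 6 libraries, and number 36 of the 24054 genes in the table. Of these, 20 encode the cytosolic enzymes and 16, with names ending in 2, the mitochondrial ones. All 36 passed the filter on low counts, as did 10975 genes in all. The WT group is the parental line, with 3 libraries of total RNA, and the DNAJ-PKAc group is the line of that genotype, also with 3 libraries. DNAJ-PKAc is a fusion of the co-chaperone DNAJB1, at its start, with the PKA catalytic subunit, a kinase that marks fibrolamellar liver carcinoma. Both lines grew in DMEM with serum, glutamine, pyruvate and nonessential amino acids. The labels give no promoter for the fusion and no clone number, and whether replicates A to C are separate cultures is not stated, so the p-values measure spread between these libraries that may be technical.

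A synthetase joins an amino acid to its own tRNAs, and so sets which residue each codon brings into a protein. Cytosol and mitochondria use different sets of these enzymes, all encoded in the nucleus, and several cytosolic ones sit together in the multisynthetase complex on the scaffold proteins Aimp1, Aimp2 and Eef1e1. When tRNAs lack their amino acid, the kinase GCN2 (Eif2ak4) phosphorylates the initiation factor eIF2. Translation of the transcription factor ATF4 then increases, and ATF4 binds the promoters of many cytosolic synthetase genes and of genes for amino acid synthesis and uptake.

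The values of a group are given below in the order of its libraries A, B and C. Library totals ran from 8095549 to 9969590 expected counts. Across genes, the correlation of DNAJ-PKAc A with B was 0.993 and that of DNAJ-PKAc C with them 0.914 and 0.911. WT B stood apart from WT A and C with 2.66% of its counts in the ribosomal precursor Rn45s, against 0.912% to 1.05% in the other 5. The 18 cell cycle genes had a median log2 level against the WT mean of -1.08 in DNAJ-PKAc C, beside 1.86 and 1.94 in its sister libraries A and B. There the summed fibroblast markers stood at 4778 and 4471 CPM, beside 16660 CPM in C (counts relative to library size, TMM-scaled except in marker sums). In the WT libraries that sum ran from 11190 to 13580 CPM. Summed endothelial and leukocyte markers were at most 4.45 CPM. All 8 hepatocyte markers, Alb and Hnf4a among them, were at 0 in every library, which goes against the liver label as far as hepatocytes are meant. Of 6 liver progenitor and bile duct markers, Krt19 and Epcam were at 0 and Krt18 had 1 count in 1 library. Afp, the fetal serum protein alpha-fetoprotein, had 3, 0 and 1 counts in WT and 103, 61 and 19 in DNAJ-PKAc, Krt8 had 64 to 74 counts in WT and 1 to 14 in DNAJ-PKAc, and Sox9 had 180 to 480 and 70 to 103. For several genes the value without DNAJ-PKAc C is given too.

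Per unit of transcript length, the WT means of the cytosolic genes lay above the mitochondrial ones, apart from Lars2, whose mean lay above that of Yars. This exception rested on WT A, where Lars2 stood at 224 CPM before division by length, beside 45.2 and 60.6 CPM in WT B and C. In WT B and C, Lars2 lay below Yars per unit of length. In CPM per kb of transcript, the WT means of the cytosolic genes ran from 24.9 for Yars to 199 for Gars, with a median of 74.0. The mitochondrial genes ran from 0.632 for Mars2 to 28.2 for Lars2, with a median of 6.60. Gars and Kars, which serve both compartments from 1 gene each, are counted with the cytosolic genes. In all 17 pairs of genes for the same amino acid, the cytosolic gene was higher per kb in all 6 libraries. The WT ratio ran from 2.48 for Farsa over Fars2 to 99.8 for Mars over Mars2, with a median of 7.23. The low Mars2 level per kb and this highest ratio depend on the length taken for Mars2, 11294 bases, beside 2962 for Mars. Before division by length the WT means were 187 CPM for Mars and 7.14 CPM for Mars2. The annotation used for counting is not known. The summed cytosolic level was 5848, 5750 and 4738 CPM in WT and 5770, 5794 and 5848 CPM in DNAJ-PKAc. The DNAJ-PKAc sums lay close to those of WT A and B and above that of WT C.

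**Figure D1:**
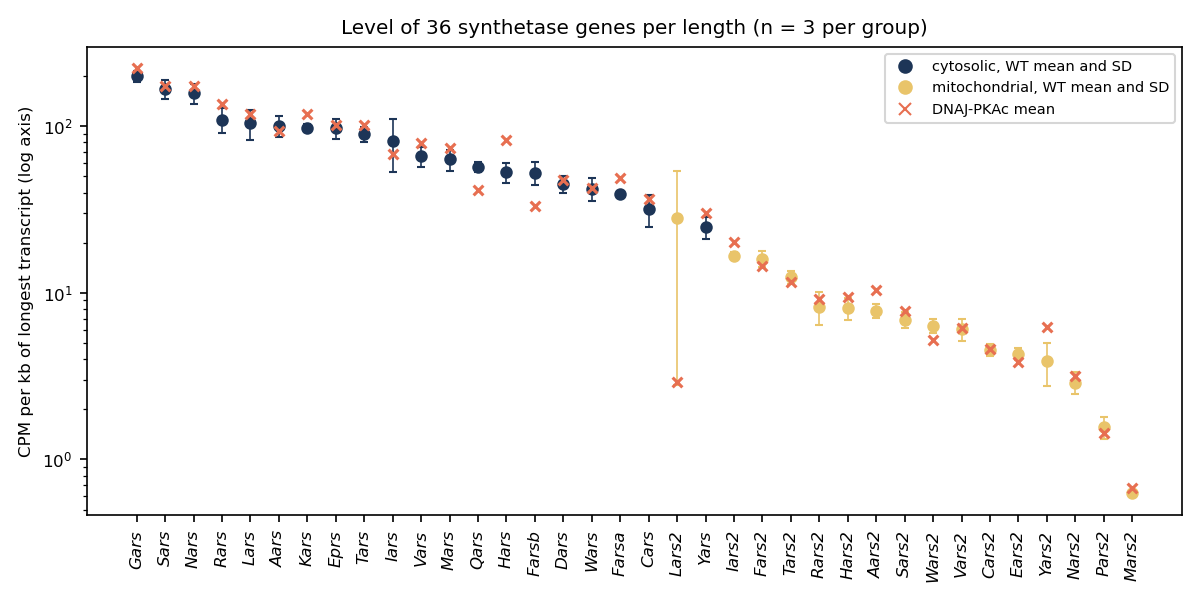
Mean CPM per kb of transcript (log axis) of each synthetase gene, as circles for WT with the SD over 3 libraries as bars (dark for cytosolic, yellow for mitochondrial genes) and crosses for the DNAJ-PKAc mean. The WT cytosolic means lie between 24.9 and 199 and the WT mitochondrial means between 0.632 and 28.2, with Lars2 the mitochondrial gene of highest WT mean. That Lars2 mean has an SD of 25.4 and rests on WT A.

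Promoter sequences are shown because the cytosolic genes fall into a set of 13 listed as bound by ATF4 and a set of 7 others, and these sets are compared in the libraries further on. The list rests on general knowledge of ATF4 targets, not on binding measured here. RefSeq promoters on GRCm38.p6, from 250 bases before to 50 after the RefSeq start of the gene, were at hand for 26 of the 36 genes. The letters TGATGNAA, the composite element that ATF4 binds with C/EBP proteins, were searched on both strands. They occur in 3.97% of the 32851 promoters of the table. They were found in 5 of the 7 ATF4-bound genes with an entry, in 0 of 5 other cytosolic genes and in 0 of 14 mitochondrial genes. These are counts of genes with a match in any of their promoters, while the share above is of promoters. The bound set was listed as ATF4 targets beforehand, so its matches give no separate evidence for the split. Aars held a further match, after its RefSeq start, that is not shown. The windows around the match lie at chr8:111033698-111033757 (Aars, plus strand), chr6:55037939-55037998 (Gars, plus strand), chr13:49682105-49682149 (Iars, plus strand), chr15:11399646-11399705 (Tars, minus strand) and chr4:129189874-129189922 (Yars, plus strand). Each is written 5′ to 3′ on the strand of the gene, with the match in capitals, which is the reverse complement of the element in all but Yars.
Aars: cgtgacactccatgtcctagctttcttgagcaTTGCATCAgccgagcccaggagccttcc
Gars: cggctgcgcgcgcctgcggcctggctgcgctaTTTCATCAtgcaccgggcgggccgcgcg
Iars: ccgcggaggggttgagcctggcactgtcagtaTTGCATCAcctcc
Tars: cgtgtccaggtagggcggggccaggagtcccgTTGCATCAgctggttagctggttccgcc
Yars: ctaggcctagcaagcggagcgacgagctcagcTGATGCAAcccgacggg

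RefSeq starts can differ from the GENCODE gene positions given elsewhere in the text. The Qars and Aars windows lie inside their GENCODE genes, which start at 108507706 and 111033144. For comparison, the last 60 bases before the RefSeq start are given for Qars (chr9:108507945-108508004, plus strand) and Farsa (chr8:84856926-84856985, plus strand). Both are cytosolic genes outside the ATF4-bound list, where the search found no match.
Qars: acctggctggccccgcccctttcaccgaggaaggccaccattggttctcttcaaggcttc
Farsa: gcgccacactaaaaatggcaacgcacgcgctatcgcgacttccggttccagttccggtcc
A match is a run of letters, not a measured site, and its absence says only that these letters are not in this window. Among the 23 other genes of the ATF4 response with an entry, 7 held the element, Asns, Chac1 and Trib3 among them. The E-box CACGTG, in 7.15% of all promoters, was found in Aars, Iars, Tars, Farsb and Ears2.

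Across the 3 libraries of each line, no synthetase gene of either compartment passed the test (edgeR's quasi-likelihood test, Benjamini-Hochberg adjustment over 10975 genes, threshold 0.05), where 3.51% of all genes did, 1.37% higher and 2.14% lower in DNAJ-PKAc. At an unadjusted p under 0.05 there were 3 cytosolic genes, Qars, Hars and Farsb, and 1 mitochondrial gene, Lars2, beside 21.5% of all genes. DESeq2 called Qars and Lars2, both lower in DNAJ-PKAc, where it called 8.87% of all genes. Down-weighting libraries by quality (limma-voom) gave 5 cytosolic genes higher and 2 lower and 3 mitochondrial genes higher and 2 lower, where 46.2% of all genes were called; with WT B and DNAJ-PKAc C both left out the 4 counts were equal to these, where 48.5% were called. Lars2 was called lower with the weights and not with both libraries out, where Fars2 was. The median absolute log2 difference of the 36 genes was 0.19, beside 0.32 over all genes, and their median standard error (SE) was 0.19. In bulk RNA, fewer cells that express a gene and less of its RNA per cell cannot be told apart.

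The fitted log2 difference, DNAJ-PKAc minus WT, was above 0 for 16 cytosolic genes and below 0 for 4, with a median of 0.17. It was above 0 for 10 mitochondrial genes and below 0 for 6, with a median of 0.06. Over all genes the median was 0.05, and 53.9% were above 0. The cytosolic median was 0.07 without WT C, and the mitochondrial one was -0.03, -0.00082 and 0.013 without WT B, DNAJ-PKAc A and DNAJ-PKAc B and 0.19 without DNAJ-PKAc C. Groups did not overlap for 4 cytosolic genes (Hars and Tars higher, Qars and Farsb lower in DNAJ-PKAc) and 2 mitochondrial genes (Lars2 and Wars2, lower), beside 28.9% of all genes (15.8% higher and 13.1% lower). By structural class, 7 of 9 class I and 8 of 10 class II genes were above 0, Eprs being left out of both because it holds an activity of each.

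**Figure D2:**
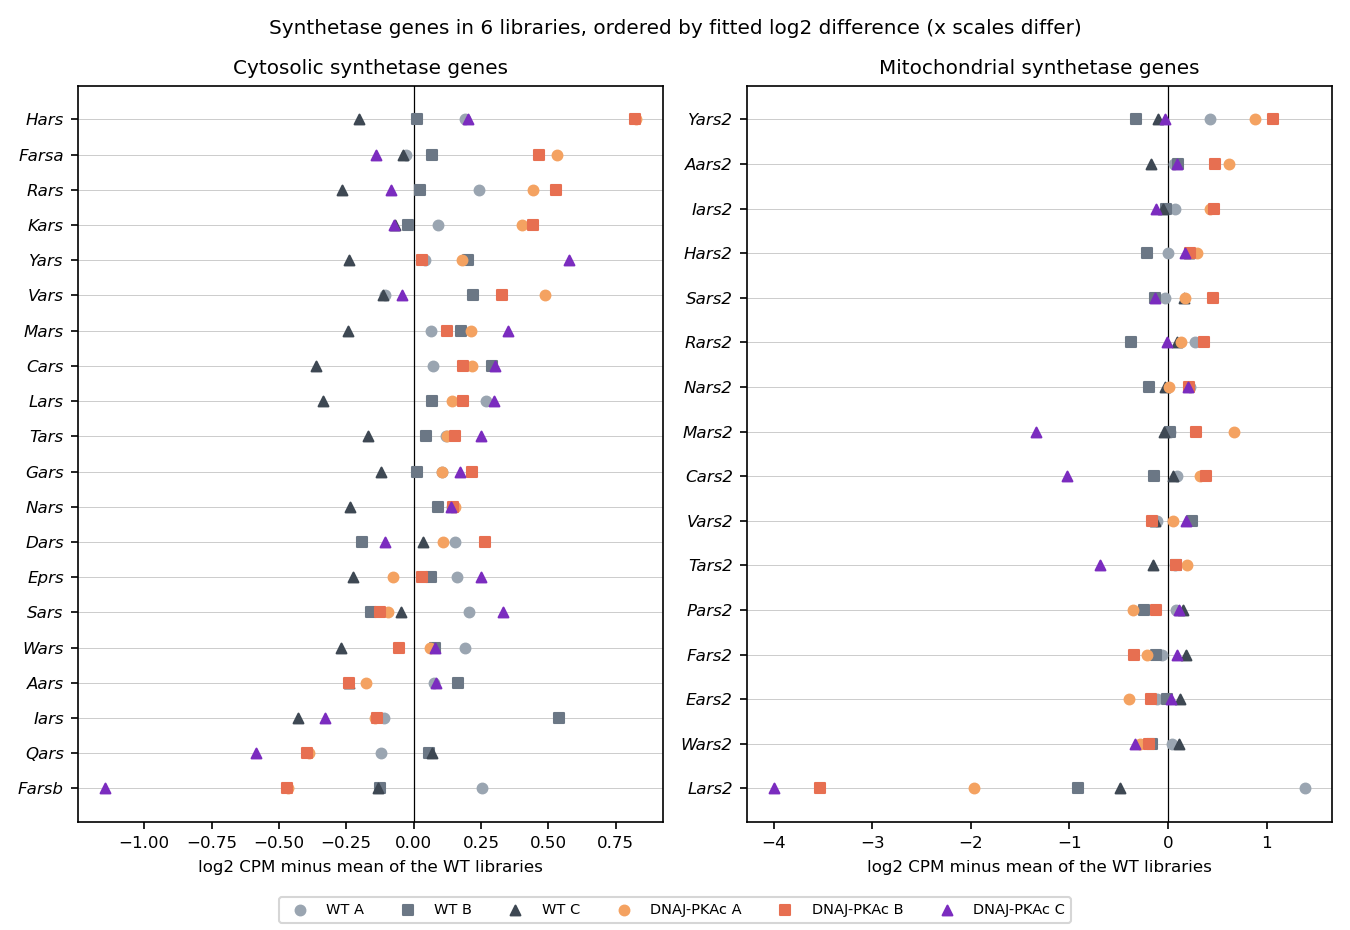
Log2 CPM of each synthetase gene in each library minus the mean of the WT libraries, cytosolic genes on the left and mitochondrial genes on the right, ordered by fitted difference; the x scales differ. DNAJ-PKAc A and B lie close together for most genes, while DNAJ-PKAc C often lies apart from them, and the Lars2 points span the widest range.

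Qars charges glutamine, the amino acid named in the study's title. Its level was 146, 165 and 167 CPM in WT and 121, 121 and 106 CPM in DNAJ-PKAc. Every DNAJ-PKAc library lay below every WT library. The log2 difference was -0.46 (SE 0.15), with an adjusted p of 0.146 in edgeR and 0.0436 in DESeq2. Without DNAJ-PKAc C it was -0.39 (edgeR, adjusted p = 0.0728). Qars lies at chr9:108507706-108515941 (GRCm38, as all gene positions here), and no mitochondrial glutaminyl enzyme exists beside it: mitochondria make Gln-tRNA from Glu-tRNA, which Ears2 charges, by the GatCAB amidotransferase. Ears2 was at 8.11, 8.75 and 9.60 CPM in WT and 6.63, 7.78 and 9.02 CPM in DNAJ-PKAc, groups that overlapped.

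Hars, which charges histidine, stood at 119, 106 and 90.9 CPM in WT and 186, 185 and 120 CPM in DNAJ-PKAc. The groups did not overlap, but DNAJ-PKAc C lay only just above the highest WT library. The log2 difference of 0.64 (SE 0.22) was the highest of the cytosolic genes and did not pass (edgeR, adjusted p = 0.166). Without DNAJ-PKAc C it was 0.82 and passed (edgeR, adjusted p = 0.0111), in a fit that called 14.3% of all genes higher. Hars lies head to head with Hars2 on chromosome 18, and 8.42% of its 31-base words occur on the opposite strand of other transcripts. Whether reads were counted by strand is not stated, so its counts are uncertain by an amount that was not measured.

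Farsa and Farsb encode the alpha and beta subunits of the cytosolic phenylalanyl enzyme, which works as a tetramer of both. Farsb (chr1:78417975-78488897) stood at 127, 97.7 and 97.3 CPM in WT and 77.0, 76.8 and 48.0 CPM in DNAJ-PKAc, without overlap. It had the lowest log2 difference of the cytosolic genes, -0.67 (SE 0.23, edgeR, adjusted p = 0.167). Without DNAJ-PKAc C that difference was -0.48 (edgeR, adjusted p = 0.0778). Farsa (chr8:84856989-84869257) stood at 70.5, 75.3 and 70.0 CPM in WT and 104, 99.4 and 65.2 CPM in DNAJ-PKAc, where A and B were above WT and C below it. Its log2 difference was 0.32 (SE 0.20; edgeR, adjusted p = 0.386), and 0.50 without DNAJ-PKAc C, where it passed (edgeR, adjusted p = 0.0283).

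The ratio of the subunit messages did not overlap between the lines, a comparison chosen after these values were seen. Farsa over Farsb, per kb, was 0.618, 0.859 and 0.802 in WT and 1.51, 1.44 and 1.51 in DNAJ-PKAc. The means were 0.760 ± 0.126 and 1.49 ± 0.0389 (SD, n = 3 each), a 1.96-fold difference. DNAJ-PKAc C, which parted from A and B for each gene alone, had a ratio close to that of A. No test is given, because the pair was chosen for this pattern, and other pairs of genes were not compared with it. Of the 31-base words of Farsb, 11.0% occur on the opposite strand of other transcripts.

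**Figure D3:**
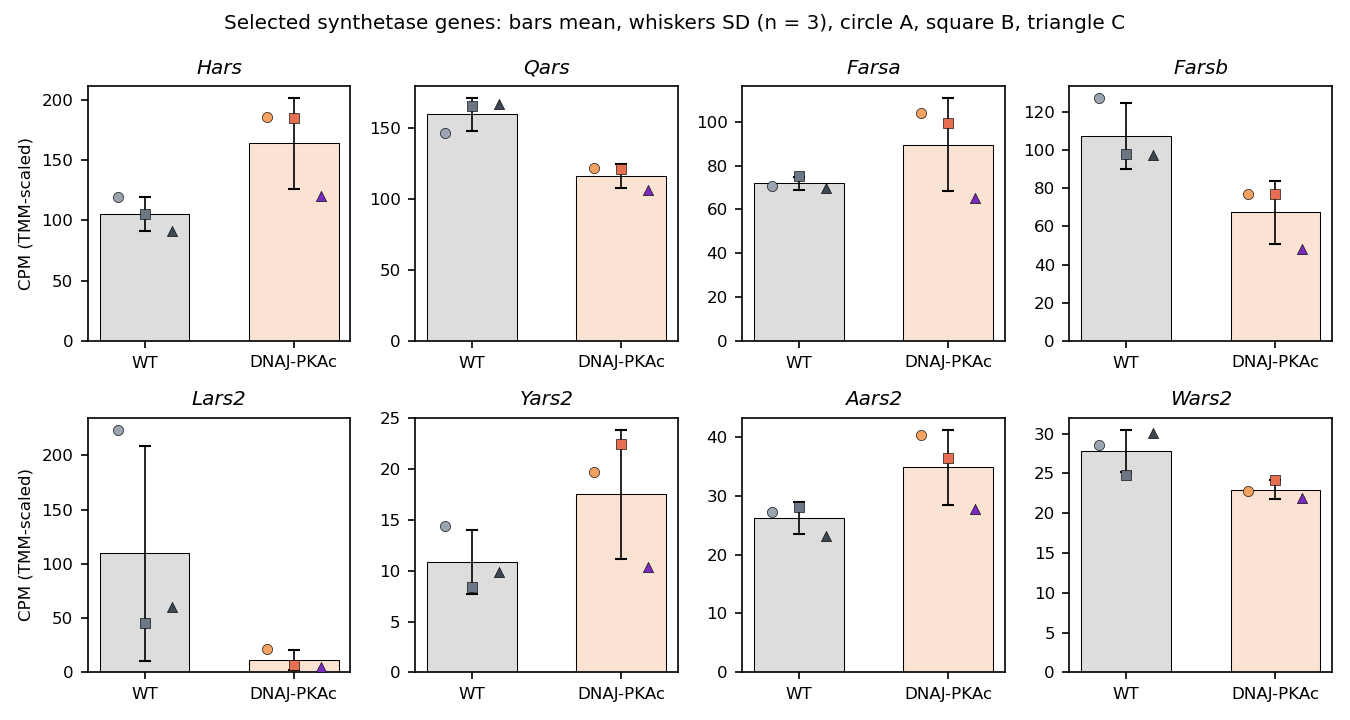
CPM of 8 synthetase genes in each library (circle A, square B, triangle C), with bars for the group mean and whiskers for the SD (n = 3); the y scales differ. Qars and Farsb lie lower in all 3 DNAJ-PKAc libraries, Hars higher, and Lars2 ranges from 224 CPM in WT A to 5.12 CPM in DNAJ-PKAc C.

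Kars, Rars and Vars, which charge lysine, arginine and valine, shared a shape: DNAJ-PKAc A and B lay above all WT libraries and C within or just below their range. Kars stood at 228, 211 and 204 CPM in WT and 283, 292 and 204 CPM in DNAJ-PKAc (log2 0.27, SE 0.18; edgeR, adjusted p = 0.399). Rars stood at 271, 233 and 191 CPM in WT and 311, 331 and 216 CPM in DNAJ-PKAc (log2 0.31, SE 0.22; edgeR, adjusted p = 0.435). Vars stood at 252, 317 and 251 CPM in WT and 381, 341 and 263 CPM in DNAJ-PKAc (log2 0.27, SE 0.19; edgeR, adjusted p = 0.443). Yars, which charges tyrosine, had the other shape, with 73.9, 82.5 and 60.7 CPM in WT and 81.3, 73.4 and 107 CPM in DNAJ-PKAc, where C was the highest of all (log2 0.27, SE 0.20; edgeR, adjusted p = 0.451).

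The genes with a double or special role showed small differences. Gars, for glycine, stood at 510, 477 and 435 CPM in WT and 509, 549 and 533 CPM in DNAJ-PKAc (log2 0.16, SE 0.14; edgeR, adjusted p = 0.531). Eprs, which charges both glutamate and proline, stood at 530, 497 and 406 CPM in WT and 450, 485 and 565 CPM in DNAJ-PKAc (log2 0.07, SE 0.17; edgeR, adjusted p = 0.845). Wars, for tryptophan, is known as an interferon-inducible gene; it stood at 135, 125 and 98.5 CPM in WT and 124, 114 and 126 CPM in DNAJ-PKAc (log2 0.02, SE 0.17; edgeR, adjusted p = 0.956). Of the 8 interferon response genes tested, 2 were called lower in edgeR, beside 2.14% of all genes. With DESeq2 5 were called lower, beside 5.7% of all genes. In edgeR without DNAJ-PKAc C 5 were called lower, beside 11% of all genes. Over all 6 libraries, Ifit3 fell by 4.17 on the log2 scale (edgeR, adjusted p = 0.00137), and Gbp2 fell by 2.62 (edgeR, adjusted p = 0.00605).

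The remaining cytosolic genes, Aars, Cars, Dars, Iars, Lars, Mars, Nars, Sars and Tars, had log2 differences between -0.26 and 0.22. Iars, at -0.26, rested on WT B: it stood at 323, 506 and 258 CPM in WT and 315, 317 and 277 CPM in DNAJ-PKAc, and the difference was 0.02 without WT B. Of the 31-base words of Iars and Aars, 17.7% and 22.7% also occur in transcripts of other genes on the same strand. The counts of these genes are uncertain by an amount that was not measured. Tars was higher without overlap by a narrow margin, at 390, 371 and 319 CPM in WT and 391, 399 and 426 CPM in DNAJ-PKAc (log2 0.17; edgeR, adjusted p = 0.524). For the 8 synthetases of the multisynthetase complex the median log2 difference was 0.14, and for the 12 outside it 0.17. The spread between DNAJ-PKAc libraries was narrow for Nars, at 481, 478 and 475 CPM, against 478, 461 and 367 CPM in WT.

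Lars2, the mitochondrial leucyl enzyme (chr9:123366927-123462666), had the largest difference of the 36 genes and the largest spread. It stood at 224, 45.2 and 60.6 CPM in WT and 21.6, 7.16 and 5.12 CPM in DNAJ-PKAc, every DNAJ-PKAc library below every WT library. The fitted level was 9.64-fold lower (log2 -3.27, SE 0.80), with an adjusted p of 0.0847 in edgeR and 5.03e-05 in DESeq2. Without WT A the log2 difference was -2.22 (edgeR, adjusted p = 0.182).

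Within each line, Lars2 stood apart in library A. Between DNAJ-PKAc A and B, which were otherwise close, it differed 3.01-fold, and 2 of the 9724 genes with at least 5 CPM in the higher of them differed more. Between DNAJ-PKAc A and C it differed 4.22-fold, and 405 of 9948 genes differed more. Between WT A and WT C it differed 3.69-fold, and 6 of 9908 genes differed more. Between WT A and WT B it differed 4.955-fold, and 55 of 9972 genes differed more. Between libraries B and C it differed like many other genes: 3889 of 10001 genes differed more in WT and 4467 of 9951 in DNAJ-PKAc. It took 38.0%, 11.7% and 14.7% of all mitochondrial synthetase counts in WT and 4.94%, 1.69% and 1.55% in DNAJ-PKAc. The library with the most Lars2, WT A, had 1.01% of its counts in Rn45s, a share like that of the other libraries but WT B. Whether ribosomal RNA bears on the Lars2 counts was not tested. The cytosolic partner Lars, at 491, 428 and 322 CPM in WT and 450, 463 and 501 CPM in DNAJ-PKAc, overlapped between groups, so the ratio of Lars to Lars2 per kb ran from 2.15 to 9.27 in WT and from 20.4 to 95.7 in DNAJ-PKAc.

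Of the other mitochondrial genes, Wars2 was the only one without overlap. It stood at 28.6, 24.9 and 30.0 CPM in WT and 22.8, 24.2 and 21.9 CPM in DNAJ-PKAc (log2 -0.28, SE 0.16; edgeR, adjusted p = 0.343). Yars2, at 14.4, 8.40 and 9.83 CPM in WT and 19.7, 22.5 and 10.4 CPM in DNAJ-PKAc, had the highest log2 difference of the mitochondrial genes, 0.69 (SE 0.35; edgeR, adjusted p = 0.291). The mitochondrial genes were summed without Lars2 as well, because of its share: the sum was 366, 340 and 353 CPM in WT and 415, 416 and 326 CPM in DNAJ-PKAc, where A and B were above WT and C below it.

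Aars2 and Iars2, the mitochondrial alanyl and isoleucyl enzymes, were also above WT in A and B, while C lay within the WT range for Aars2 and below it for Iars2. Aars2 stood at 27.3, 28.1 and 23.2 CPM in WT and 40.3, 36.3 and 27.8 CPM in DNAJ-PKAc (log2 0.41, SE 0.20; edgeR, adjusted p = 0.268). Iars2 stood at 96.1, 89.9 and 87.9 CPM in WT and 122, 126 and 84.1 CPM in DNAJ-PKAc (log2 0.28, SE 0.19; edgeR, adjusted p = 0.407). Without DNAJ-PKAc C, Yars2, Aars2 and Iars2 rose, by 0.96, 0.55 and 0.45 on the log2 scale (edgeR, adjusted p = 0.0347, 0.0421 and 0.0428), in a fit that called 25.3% of all genes. Of the 31-base words of Iars2, 36.8% occur on the opposite strand of other transcripts, which makes its counts uncertain.

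Hars2, for mitochondrial histidine, stood at 26.8, 23.1 and 31.1 CPM in WT and 32.9, 31.4 and 30.2 CPM in DNAJ-PKAc (log2 0.22, SE 0.17; edgeR, adjusted p = 0.470). The other 10 mitochondrial genes had log2 differences between -0.18 and 0.18. Among them Mars2 and Cars2, for methionine and cysteine, had their lowest value in DNAJ-PKAc C by a wide margin. Mars2 was at 2.68 CPM there and from 6.96 to 11.5 CPM in the other 5 libraries. Cars2 was at 4.14 CPM there and from 7.82 to 11.4 CPM in the others. Of the 31-base words of Cars2, 19.7% occur on the opposite strand of other transcripts, which makes its counts uncertain.

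In DNAJ-PKAc C the cytosolic genes on the ATF4 list were mostly higher than in A and B, and those off the list lower. Of the 13 ATF4-bound genes, 9 were higher in C than in both A and B, beside 47.2% of all genes, and 7 were higher in C than in all other 5 libraries, beside 23.6%. Of the 7 other cytosolic genes (Dars, Farsa, Farsb, Hars, Kars, Qars and Rars), 7 were lower in C than in both A and B, beside 42.7% of all genes, and 4 were lower than in all other 5, beside 20.4%. The log2 level in C minus the mean of A and B ranged from -0.45 (Vars) to 0.47 (Yars) in the ATF4-bound set, with a median of 0.11, and from -0.68 (Farsb) to -0.19 (Qars) in the other set, with a median of -0.57. This rests on 1 library and has no replicate; the exceptions in the bound set were Vars and Iars, which were lower in C than in both A and B, Nars, which was lower by a narrow margin (-0.012 from their mean), and Gars, which lay between them.

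Mitochondrial genes were lower in C than in A and B for 11 of 16, with a median difference of -0.35, and 0 of 16 were highest in C among the 6 libraries. Other gene groups also differed between C and the libraries A and B, in either direction. The 26 ATF4 response genes tested had DNAJ-PKAc medians of -0.11, -0.20 and 0.38 against the WT mean, and 20 of them were higher in C than in A and B. The fibroblast markers had medians of -1.94, -1.76 and 0.59 and the cell cycle genes the values given above. The part of the cell cycle and fibroblast genes in these differences was not tested.

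**Figure D4:**
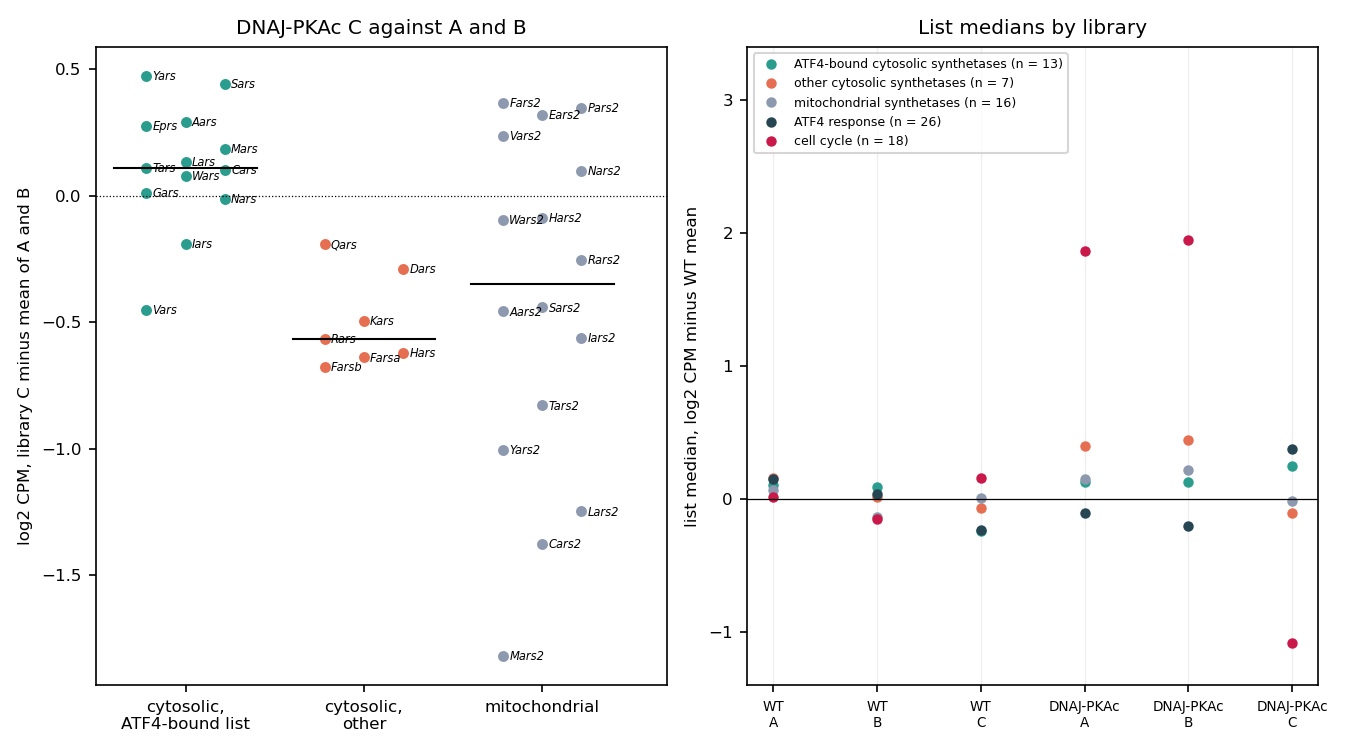
Left, log2 level in DNAJ-PKAc C minus the mean of DNAJ-PKAc A and B for each synthetase gene, by set: ATF4-bound cytosolic, other cytosolic and mitochondrial, with set medians as lines; right, the median log2 level against the WT mean in each library for these sets, the ATF4 response and the cell cycle genes. On the left, the other cytosolic genes all lie below 0 (median -0.57), while the ATF4-bound genes spread on both sides (median 0.11).

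In the rest of the charging pathway edgeR called no gene over all 6 libraries, and DESeq2 called 1, Hsd17b10. Without DNAJ-PKAc C, edgeR called several, in the fit that called 25.3% of all genes, 14.3% higher. With quality weights, and with WT B and DNAJ-PKAc C both left out, genes of each list below were called, in fits that called 46.2% and 48.5% of all genes. Among 9 genes of the complex scaffolds, editing and tRNA export, 5 were above 0 and 4 below, which became 3 above without DNAJ-PKAc B and 7 above without WT A. Without DNAJ-PKAc C, 1 of them rose. Xpot, which exports tRNAs from the nucleus, was higher without overlap, at 300, 302 and 245 CPM in WT and 384, 371 and 351 CPM in DNAJ-PKAc (log2 0.38; edgeR, adjusted p = 0.214). Eef1e1, a scaffold of the complex, had 0.37 (edgeR, adjusted p = 0.398) and, without DNAJ-PKAc C, 0.59 (edgeR, adjusted p = 0.0311), and the scaffolds Aimp1 and Aimp2 had -0.09 and 0.08.

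Of the 9 mitochondrial charging partners tested, 6 were above 0 (median 0.19). Without DNAJ-PKAc C the median was 0.44 and 3 rose, beside 14.3% of all genes, and without DNAJ-PKAc B the median was 0.12. Qrsl1, the GatA subunit of the amidotransferase that makes mitochondrial Gln-tRNA, stood at 16.8, 12.7 and 12.5 CPM in WT and 32.4, 33.3 and 15.7 CPM in DNAJ-PKAc (log2 0.96; edgeR, adjusted p = 0.159). Gfm2, a mitochondrial ribosome recycling factor, had 0.53 (edgeR, adjusted p = 0.160). Without DNAJ-PKAc C, Qrsl1 had 1.23 and Gfm2 0.65 (edgeR, adjusted p = 0.00505 and 0.0183).

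In tRNA maturation 17 of 22 genes were above 0 (median 0.35). The median was 0.15 without WT B and 0.21 without DNAJ-PKAc B, and without DNAJ-PKAc C 5 of 22 rose, beside 14.3% of all genes. Hsd17b10, a subunit of mitochondrial RNase P, had 0.63, with an adjusted p of 0.0919 in edgeR, 0.0397 in DESeq2 and 0.0128 in edgeR without DNAJ-PKAc C. Tsen15, of the splicing endonuclease, had 0.61 (edgeR, adjusted p = 0.168). In RNA polymerase III, which transcribes tRNA genes, 16 of 20 were above 0 (median 0.18), and 2 of 20 rose without DNAJ-PKAc C. Gtf3c4 had 0.38 and Gtf3c6 0.94 (edgeR, adjusted p = 0.195 and 0.197), and without DNAJ-PKAc C they had 0.45 and 1.25 (edgeR, adjusted p = 0.0386 and 0.00423). Among the 6 cytosolic elongation factors, which carry charged tRNAs to the ribosome, 3 were above 0, 1 rose without DNAJ-PKAc C, and Eef1b2 and Eef1a1 had -0.29 and -0.32 (edgeR, adjusted p = 0.366 and 0.408).

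In the sensing arm, 0 of 14 genes of the eIF2 kinases, eIF2 and eIF2B passed in edgeR or DESeq2, and 10 were above 0 (median 0.23). The median was 0.10 without WT C, 0.15 without DNAJ-PKAc A and 0.14 without DNAJ-PKAc B. Without DNAJ-PKAc C, 4 of 14 rose, beside 14.3% of all genes. Eif2ak4, the GCN2 kinase that senses uncharged tRNA, was at 31.7, 35.6 and 30.2 CPM in WT and 46.3, 41.1 and 38.8 CPM in DNAJ-PKAc, without overlap (log2 0.37; edgeR, adjusted p = 0.230). Eif2ak3, the kinase of the unfolded protein response, was lower without overlap, at 45.5, 40.4 and 42.9 CPM in WT and 29.0, 33.2 and 31.2 CPM in DNAJ-PKAc (log2 -0.46; edgeR, adjusted p = 0.150). The eIF2 subunit gene Eif2s3x had 0.42 (edgeR, adjusted p = 0.220) and, without DNAJ-PKAc C, 0.53 (edgeR, adjusted p = 0.0340).

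Of 26 ATF4 response genes tested, 0 passed in edgeR or DESeq2 and 17 were above 0, with a median of 0.08, but this balance depended on single libraries. Of the 27 tested without DNAJ-PKAc C, 10 were above 0 (median -0.19), and of the 27 without WT C, 12 (median -0.03). The median was 0.17, 0.19 and 0.23 without WT A, DNAJ-PKAc A and DNAJ-PKAc B. Atf4 itself stood at 620, 472 and 458 CPM in WT and 524, 551 and 758 CPM in DNAJ-PKAc (log2 0.24; edgeR, adjusted p = 0.526). Asns, the asparagine synthetase and a standard ATF4 target, stood at 515, 416 and 335 CPM in WT and 417, 444 and 552 CPM in DNAJ-PKAc (log2 0.16; edgeR, adjusted p = 0.681). Both were highest in DNAJ-PKAc C. Psat1, of serine synthesis, had 0.56 (edgeR, adjusted p = 0.152) and Cebpb, an ATF4 partner, 0.58 (edgeR, adjusted p = 0.201). Without DNAJ-PKAc C, Psat1 and Cebpb had 0.65 and 0.71 (edgeR, adjusted p = 0.0280 and 0.0379). In that fit 3 genes of the list rose and 4 fell, 7 of 27, a share near the 25.3% of all genes called.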

How the data were processed

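Total RNA of 6 TIBx libraries (3 WT, 3 DNAJ-PKAc) was used, grouped by the genotype in the labels. The authors deposited 1 table of expected counts per gene symbol, not normalized, per the file headers. Per the submitters' processing notes, the tools RSEM 1.3.0 and STAR 2.5.2b and the build mm10 are listed, in roles left unnamed; the annotation and strand setting were not found in them or in the labels. Expected counts were rounded and filtered by filterByExpr (minimum count 10). The test was the 2-sided quasi-likelihood test of edgeR 4.0.16 (R 4.3.3) with TMM scaling, robust dispersions and group alone in the model, with Benjamini-Hochberg adjustment over 10975 genes and a threshold of 0.05. CPM values are TMM-scaled, except the marker sums, which are relative to the library total. Per library, 1.52% to 1.68% of the values had decimals.

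The synthetase genes, the gene lists and the alternatives were chosen with earlier results of these data known. Values in every library are given for the 8 cytosolic and 6 mitochondrial genes of smallest p, for Gars, Kars, Eprs and Wars, and for the lowest and highest difference in each compartment; in each pathway list the 2 genes of smallest p and up to 2 more were named. Ears2, Iars, Lars, Nars, Tars, Mars2 and Cars2 were added after their values were seen. Gene positions and transcript lengths (longest coding transcript) are from GENCODE M21, and shared sequence is the percent of 31-base words also present in transcripts of other genes. Alternatives were other scaling factors and filters, DESeq2 1.42.0, limma-voom (limma 3.58.1) with and without library quality weights, non-robust dispersions, the replicate letter as a block, libraries left out, structural RNA left out of library sizes and a threshold of 0.01. On simulated counts of 10975 genes (10899 tested), edgeR found 19 of 100 planted 2-fold changes and 82 of 100 planted 4-fold changes. It made 6 false calls, and for DESeq2 these values were 38, 93 and 43. The share that would be found among the synthetase genes was not tested. Libraries of a group differed by more than sampling noise and were counted separately.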

Additional observations from a re-analysis of the deposited data

How the results depend on the processing

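The number of all genes called, 385, became 974 with DESeq2, 5074 with quality weights, 5336 with WT B and DNAJ-PKAc C both left out, 199 with the replicate block and 72 at a threshold of 0.01. It ran from 77 to 2808 when 1 library was left out: 2808 without DNAJ-PKAc C and 77 to 110 without any other. Cytosolic genes called higher were 5 with quality weights and 5 with both libraries out, and 0 to 2 with 1 library left out; those called lower were 1 with DESeq2 and 2 under each of the other 2 settings, and 0 with 1 library left out. Mitochondrial genes called higher were 3 with quality weights, 3 with both libraries out, and 0 to 3 with 1 library left out; those called lower were 1 with DESeq2, 1 with the replicate block (Lars2, log2 -3.20, adjusted p = 0.00972), 2 with quality weights and 2 without both libraries. Quality weights called 46.2% of all genes and leaving out both libraries 48.5%. The cytosolic median of 0.17 was 0.12 with RLE scaling and DESeq2, 0.10 with upper-quartile scaling, 0.12 without both libraries and 0.071 to 0.22 with 1 left out; the mitochondrial median ran from -0.03 to 0.19. Same-letter libraries correlated at 0.211, -0.198 and 0.0282 in their deviations from the group means, so the letters were not taken to pair the samples; the block called no other synthetase gene.

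Several genes changed sign, and not only those nearest 0: Iars had -0.26 over all 6 libraries. With both libraries out, the log2 difference was -0.048 for Eprs, 0.075 for Iars, -0.24 for Sars, -0.020 for Wars, -0.041 for Nars2, 0.14 for Tars2, -0.052 for Atf4 and -0.030 for Asns. With quality weights it was 0.080 for Iars, -0.16 for Sars and 0.16 for Tars2. With RLE scaling and with DESeq2 it was -0.00079 and -0.00081 for Sars, -0.0262 and -0.0262 for Wars, -0.0142 and -0.0144 for Cars2 and -0.0234 and -0.0230 for Vars2, and with upper-quartile scaling -0.024, -0.047, -0.048 and -0.039 for these genes. With limma-voom and with the replicate block it was -0.092 and -0.082 for Cars2 and -0.11 and -0.085 for Mars2. With 1 library left out, it ran from -0.041 to 0.18 for Dars, -0.038 to 0.15 for Eprs, -0.45 to 0.0195 for Iars, -0.12 to 0.16 for Sars, -0.11 to 0.12 for Wars, -0.19 to 0.36 for Cars2, -0.32 to 0.51 for Mars2, -0.00077 to 0.26 for Nars2, -0.058 to 0.30 for Rars2, -0.25 to 0.14 for Tars2, -0.060 to 0.11 for Vars2 and -0.057 to 0.28 for Aimp2. The cause of these changes was not tested.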
